A study of Mus musculus with 18 samples.

Results

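The mouse Cyp3a genes encode cytochrome P450 enzymes of the CYP3A subfamily. The 8 genes described here, Cyp3a11, Cyp3a13, Cyp3a16, Cyp3a25, Cyp3a41a, Cyp3a41b, Cyp3a44 and Cyp3a59, were taken by their symbols from a liver table of 37303 genes. The table holds 9 genes whose symbol starts with Cyp3a, and the other is Cyp3a57, which lay between 0.00770 and 0.151 FPKM in all groups. RNA-Seq was performed on livers of 18 mice in 6 groups of 3. Mice were wild type (WT) or carried a homozygous whole-body deletion of Gcn2 (Gcn2-/-) or of Atf4 (Atf4-/-), all on a C57BL/6J background. Each strain received 8 daily intraperitoneal injections of asparaginase (ASNase, the native E. coli enzyme Elspar, 3 IU per gram body weight) or of phosphate buffered saline (PBS), and was killed 7.5 h after an injection. Ages are given as 8 to 12 weeks in one label and 8 to 16 weeks in another. Groups held both sexes: 1 of 3 mice was male in WT PBS, Gcn2-/- PBS and Gcn2-/- ASNase, and 2 of 3 in WT ASNase, Atf4-/- PBS and Atf4-/- ASNase. The deletions were present in every tissue from development on, so an effect in liver cannot be told apart from an effect of the whole animal.

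CYP3A enzymes sit in the endoplasmic reticulum of hepatocytes, where they oxidize drugs, steroids and bile acids, with electrons from cytochrome P450 reductase (Por) and cytochrome b5. Their genes are classic targets of the xenobiotic receptors PXR (Nr1i2) and CAR (Nr1i3). In mice, Cyp3a11 is the main adult hepatic form, Cyp3a16 is known from fetal and newborn liver, and Cyp3a41 and Cyp3a44 are female-predominant under the control of growth hormone. Asparaginase depletes blood asparagine and to a lesser degree glutamine. GCN2 is the eIF2 kinase that senses this shortage, and ATF4 is a transcription factor made more when eIF2 is phosphorylated.

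Each value is 1 FPKM per gene and group, estimated by Cuffdiff from the 3 libraries together, with the lower and upper bound that Cuffdiff gave. FPKM is scaled to transcript length and library size, so levels of different genes can be set side by side. No value of a single library was in the table, and therefore no SD, n or p-value is given and no difference has a replicate check. For a comparison of 2 groups, a gene counted as eligible if neither estimate had failed or was 0 and at least 1 of them exceeded 3 FPKM. It was called when, in addition, log2(FPKM + 0.1) differed by more than 1.5 and the intervals did not overlap. This scale understates the change of low genes. A fold is the ratio of the 2 FPKM values without the added 0.1, so for a low gene it is larger than the log2 difference beside it implies. Below, rose and fell are used of called genes alone, and the error beside a log2 difference combines the intervals of both values on the log2 scale and does not enter the call. Fewer cells of a type and less RNA per cell cannot be told apart in whole liver.

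The labels were compared with a few other transcripts. Gene-level FPKM did not separate the deletions: Eif2ak4, which encodes GCN2, lay between 2.19 and 3.14 in all 6 groups, and Atf4 lay between 50.4 and 68.1 in the WT and Gcn2-/- groups and at 32.3 and 29.3 in the Atf4-/- groups, with intervals that overlapped WT under the same treatment. Gene-level FPKM does not resolve single exons, and the genotypes are taken from the labels. The study itself reported read densities that lacked a Gcn2 exon in Gcn2-/- mice and lacked Atf4 in Atf4-/- mice. Hepatocyte markers were abundant in all groups, among them Apoa2 at 3546 to 17967 FPKM, while Alb is listed at 0 with no estimate. The 10 skeletal muscle markers summed to 886 FPKM in WT PBS, 1251 in WT ASNase and 5.98 to 147 in the groups with a deletion. In each deletion against WT under PBS 7 of the 10 were called lower, where 0.65% (Gcn2-/-) and 0.763% (Atf4-/-) of all eligible genes were. The 5 lung epithelium markers summed to 134 FPKM in WT PBS, where Scgb1a1 stood at 104, and to between 0.974 and 2.35 elsewhere. WT PBS is the reference of both basal comparisons, and the part of the muscle and lung transcripts in the results was not tested.

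All 8 genes lie on chromosome 5 (coordinates of the GENCODE annotation of GRCm38, the build called mm10 in the study). Cyp3a13 stands apart at chr5:137892932-137921619 on the minus strand. The other 7 follow each other in a cluster: Cyp3a16 at chr5:145436309-145469723, Cyp3a41b and Cyp3a41a as neighbours, Cyp3a44 at chr5:145773983-145805874, Cyp3a11 at chr5:145854426-145879964, Cyp3a25 at chr5:145977194-146009618 and, on the plus strand, Cyp3a59 at chr5:146079257-146113287. By coding sequence the cluster fell into 2 families, Cyp3a25 with Cyp3a59 and the other 5 genes, which shared 74.7% to 76.1% between them. Cyp3a41a and Cyp3a41b shared 99.9% of 1512 coding bases, Cyp3a25 and Cyp3a59 97.5%, Cyp3a41a and Cyp3a44 95.8%, and Cyp3a11 and Cyp3a16 92.8%. Cyp3a13 shared 75.2% to 76.9% with each of the others.

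**Figure D1:**
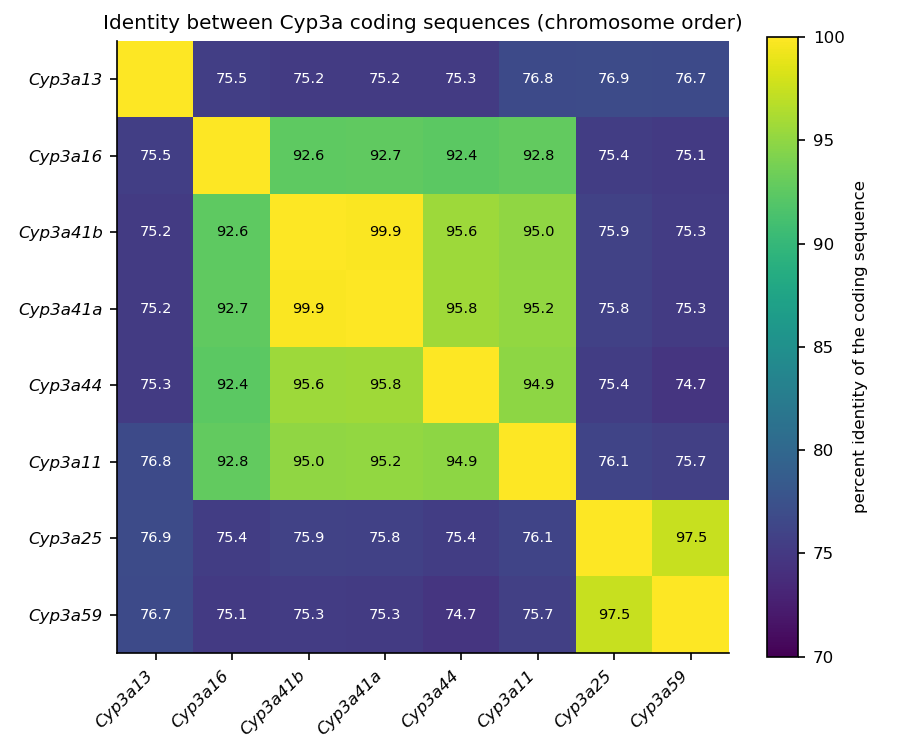
Percent identity between the coding sequences of the 8 Cyp3a genes, with genes on both axes in chromosome order and colour running from 70% to 100%. A block of 5 genes from Cyp3a16 to Cyp3a11 lies between 92.4% and 99.9%, Cyp3a25 and Cyp3a59 form a pair at 97.5%, and Cyp3a13 lies at 75.2% to 76.9% of each other gene.

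This closeness bears on the counts, since the reads were 100 bases long. Of the 100-base windows of the Cyp3a41a transcript, 90.8% also occurred in a transcript of another gene, and of those of Cyp3a41b 88.2%. The division of reads between these 2 genes is therefore uncertain, and their sum is given beside them. For the other members the shared windows were few: 6.05% for Cyp3a25, 5.61% for Cyp3a59, 5.37% for Cyp3a44, 0.312% for Cyp3a11, 0.123% for Cyp3a16 and 0 for Cyp3a13.

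The promoters follow the same families. Over the 250 bases before the start (RefSeq, GRCm38.p6; all 8 members matched), Cyp3a25 and Cyp3a59 were 95.2% identical, Cyp3a16 and Cyp3a44 94.4%, Cyp3a41a and Cyp3a44 94.4%, and Cyp3a11 and Cyp3a16 79.6%. The stretch from 250 to 121 bases before the start is shown for the genes whose levels differ most in what follows, the Cyp3a16 to Cyp3a44 neighbours, Cyp3a11 beside them and the pair Cyp3a25 and Cyp3a59. Capitals mark the forkhead core TGTTTAC, the letters bound by FOXA and related factors.
Cyp3a16 (chr5:145469844-145469973, minus strand): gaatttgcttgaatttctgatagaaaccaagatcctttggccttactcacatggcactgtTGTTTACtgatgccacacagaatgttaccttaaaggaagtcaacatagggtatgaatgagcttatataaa
Cyp3a41a (chr5:145720257-145720386, minus strand): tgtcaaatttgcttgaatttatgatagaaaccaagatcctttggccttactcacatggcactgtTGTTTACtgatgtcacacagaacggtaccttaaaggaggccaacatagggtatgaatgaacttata
Cyp3a44 (chr5:145805995-145806124, minus strand): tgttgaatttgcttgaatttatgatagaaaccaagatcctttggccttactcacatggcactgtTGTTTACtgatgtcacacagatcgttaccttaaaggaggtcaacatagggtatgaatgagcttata
Cyp3a11 (chr5:145879975-145880104, minus strand): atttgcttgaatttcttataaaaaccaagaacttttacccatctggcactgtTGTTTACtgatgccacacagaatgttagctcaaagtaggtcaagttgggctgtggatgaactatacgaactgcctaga
Cyp3a25 (chr5:146009739-146009868, minus strand): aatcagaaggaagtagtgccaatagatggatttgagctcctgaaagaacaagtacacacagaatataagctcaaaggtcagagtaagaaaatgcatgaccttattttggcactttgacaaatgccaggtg
Cyp3a59 (chr5:146079008-146079137, plus strand): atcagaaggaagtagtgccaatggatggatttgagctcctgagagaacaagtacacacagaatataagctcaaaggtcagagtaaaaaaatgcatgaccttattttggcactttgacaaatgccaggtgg

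On both strands of the 250 bases, TGTTTAC was found in 5 of the 8 members, Cyp3a11, Cyp3a16, Cyp3a41a, Cyp3a41b and Cyp3a44, from 186 to 198 bases before the start, against 3.17% of 32851 promoters of the same length. These 5 promoters are 76% to 99.6% identical to each other, so their matches are not independent and the counts of members are description. The nuclear receptor core AGGTCA was found in 4 of 8 (Cyp3a11, Cyp3a25, Cyp3a44 and Cyp3a59; 14% of all promoters) and AGTTCA in 3 of 8 (Cyp3a11, Cyp3a41a and Cyp3a41b; 11.8%). The letters TTCNNNGAA, which STAT factors bind, were in 0 of 8 (7.02% of all promoters). The letters TGATGNAA, known as the C/EBP-ATF response element to which ATF4 binds with C/EBP partners, were in 1 member, Cyp3a11, 99 bases before its RefSeq start, and in 3.45% of all promoters. The RefSeq start of Cyp3a11 lies inside the GENCODE gene given above, so that by GENCODE this match falls within the gene and not before it. None of these letters overlapped another of the searched motifs in the stretches shown. The 30 bases around that match are shown with the corresponding bases of its neighbours, the 8 aligned letters in capitals.
Cyp3a11 (chr5:145879936-145879965, minus strand): accaaagtccagTGATGCAAaggtgatcca
Cyp3a16 (chr5:145469794-145469823, minus strand): ccaaagtccaggTGATGCAGgggtaatcaa
Cyp3a41a (chr5:145720203-145720232, minus strand): ccaaagtccaggTGATGCAGgggtaatcaa
Cyp3a44 (chr5:145805941-145805970, minus strand): ccaaagtacaggTGATGCAGgggtaatcaa
A match describes letters in a window, and binding was not measured.

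The 8 genes differed widely in level. In WT PBS livers Cyp3a11 stood at 2995 FPKM, Cyp3a25 at 331, Cyp3a13 at 54.6, Cyp3a59 at 38.6, Cyp3a44 at 2.96, Cyp3a41a at 1.09, Cyp3a16 at 0.322 and Cyp3a41b at 0.00568. Cyp3a11 was the highest member in each of the 6 groups.

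**Figure D2:**
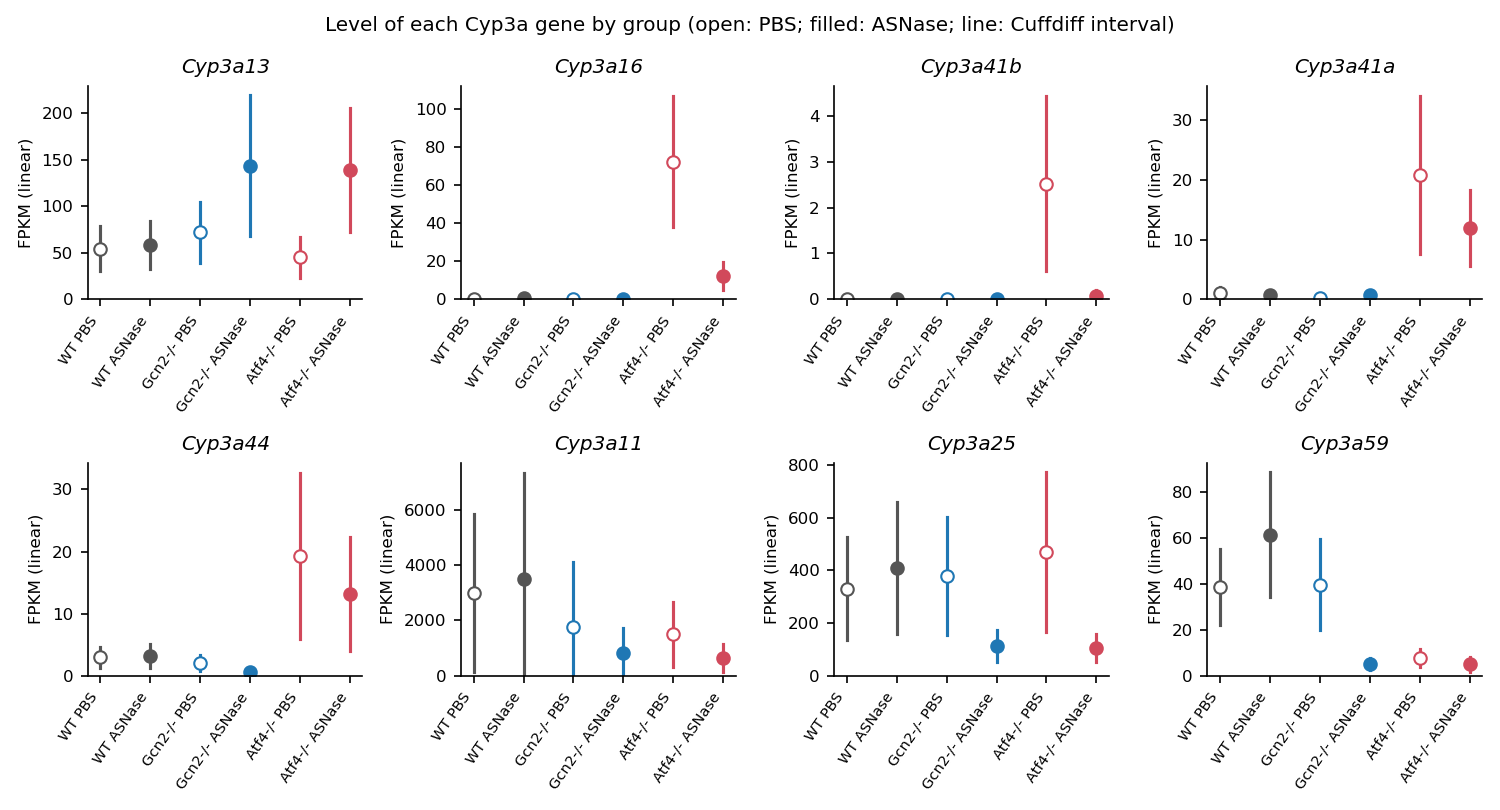
FPKM (vertical axis, linear and different for each gene) of the 8 Cyp3a genes in the 6 groups, with open points for PBS, filled points for ASNase and lines for the Cuffdiff intervals. Cyp3a16, Cyp3a41a and Cyp3a44 stand above the other groups in both Atf4-/- groups, Cyp3a59 is low in both Atf4-/- groups and in Gcn2-/- ASNase, and the intervals of Cyp3a11 all overlap.

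Cyp3a11, the main hepatic form, had the widest intervals of the abundant members. Its FPKM was 2995 (129 to 5860) in WT PBS and 3513 (0 to 7353) in WT ASNase livers. Loss of Gcn2 gave 1758 (0 to 4128) and 824 (0 to 1711), again for PBS and ASNase, and loss of Atf4 gave 1497 (325 to 2669) and 649 (130 to 1167). The WT values stood highest and the values of both deletions after ASNase lowest, but each interval overlapped each of the other 5. Cyp3a11 was accordingly not called in any of the 9 comparisons. By FPKM it ranked 26 and 22 among all genes of the table in WT PBS and WT ASNase livers, and between 49 and 168 in the groups with a deletion. Between Atf4-/- and WT livers after ASNase its log2 difference was -2.44 ± 1.95, and between Gcn2-/- and WT it was -2.09 ± 2.21.

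Cyp3a16, the form of fetal and newborn liver, was low in WT and Gcn2-/- livers, at 0.322 (0.0101 to 0.633) in WT PBS, 0.464 (0.0765 to 0.852) in WT ASNase, 0.200 (0 to 0.425) in Gcn2-/- PBS and 0.0606 (0 to 0.144) in Gcn2-/- ASNase. In Atf4-/- livers it was 72.2 (37.8 to 107) under PBS and 12.2 (4.79 to 19.6) after ASNase. Both Atf4-/- intervals lay above those of the 4 other groups and apart from each other. In Atf4-/- PBS livers its level was above that of Cyp3a59, and its interval overlapped that of Cyp3a13.

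Cyp3a41a, one of the female-predominant forms, was 1.09 (0.121 to 2.07) in WT PBS, 0.669 (0.0136 to 1.32) in WT ASNase, 0.243 (0 to 0.495) in Gcn2-/- PBS and 0.774 (0.140 to 1.41) in Gcn2-/- ASNase livers. Loss of Atf4 gave 20.8 (7.62 to 34.0) with PBS and 11.9 (5.51 to 18.4) with ASNase, both above the intervals of the 4 other groups. Cyp3a41b was 2.52 (0.606 to 4.43) in Atf4-/- PBS and 0.0814 (0 to 0.202) in Atf4-/- ASNase livers, 0.00568 and 0.00532 in the WT groups, and is listed at 0 in both Gcn2-/- groups. It never reached 3 FPKM and was eligible in no comparison. The sum of both genes, which does not depend on how reads were divided between them, was 0.243 and 0.774 FPKM in the Gcn2-/- groups, 0.675 in WT ASNase, and in Atf4-/- 23.3 under PBS and 12.0 after ASNase. The order of the groups by the sum was that of Cyp3a41a alone.

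Cyp3a44, also female-predominant, was 2.96 (1.22 to 4.70) under PBS and 3.10 (1.17 to 5.03) after ASNase in WT. In Gcn2-/- the values were 2.03 (0.718 to 3.35) and 0.559 (0.0853 to 1.03), and in Atf4-/- 19.3 (5.93 to 32.7) and 13.2 (4.06 to 22.3). The interval of Atf4-/- PBS lay above those of the WT and Gcn2-/- groups, while that of Atf4-/- ASNase overlapped both WT intervals. The lowest value, in Gcn2-/- ASNase, lay apart from both WT groups and both Atf4-/- groups.

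Cyp3a25, the form with the level next to Cyp3a11, was 331 (135 to 527) under PBS and 410 (158 to 661) after ASNase in WT. In Gcn2-/- it was 378 (154 to 602) and 114 (52.6 to 176), and in Atf4-/- 471 (168 to 774) and 105 (50.8 to 159). The values after ASNase in both deletions stood lowest, and the other 4 intervals overlapped each other. Its close paralog Cyp3a59 was 38.6 (22.2 to 55.1) under PBS and 61.5 (34.2 to 88.7) after ASNase in WT. In Gcn2-/- it was 39.7 (19.9 to 59.5) and 5.10 (2.56 to 7.64), and in Atf4-/- 7.71 (3.61 to 11.8) and 5.05 (1.74 to 8.35). The groups of Cyp3a59 fell into an upper set of 3 and a lower set of 3 whose intervals did not meet. Both genes stood low after ASNase in Gcn2-/- and Atf4-/- livers, but in Atf4-/- PBS livers Cyp3a25 stood at its highest and Cyp3a59 in its lower set. Cyp3a59 amounted to 11.7%, 15.0% and 10.5% of Cyp3a25 in WT PBS, WT ASNase and Gcn2-/- PBS livers, to 1.64% in Atf4-/- PBS livers, and to 4.47% and 4.82% after ASNase with loss of Gcn2 or Atf4.

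Cyp3a13, the member outside the cluster and a form also known from intestine, was 54.6 (30.9 to 78.3) under PBS and 58.4 (32.3 to 84.5) after ASNase in WT. In Gcn2-/- it was 71.9 (39.0 to 105) and 144 (67.8 to 220), and in Atf4-/- 45.1 (23.2 to 67.0) and 139 (72.4 to 206). It was highest after ASNase in both deletions, where the other abundant members were lowest. A processed pseudogene, Gm15502, lies on the same strand at chr5:137896752-137896959 within Cyp3a13 and overlaps 0 of its exons. It was named after its values were seen, and its FPKM ran from 6.03 to 65.1 with intervals that all began at 0. Of 9 intestinal epithelium markers, Fabp2 (6.35 to 117 FPKM) and Lgals4 (6.21 to 17.8) passed 3 FPKM. The defining marker Vil1 was at or below 0.251 FPKM in every group and Sis, a brush border disaccharidase gene, is listed at 0 in 4 of the 6. After ASNase, where Cyp3a13 was high, Fabp2 fell in Gcn2-/- (log2 difference -1.89) and in Atf4-/- livers (-2.75).

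Set together, the 8 genes summed to 3423 FPKM under PBS and 4047 after ASNase in WT. In Gcn2-/- the sum was 2251 and 1089, and in Atf4-/- 2136 and 935. Most of it was Cyp3a11, at 87.5% in WT PBS, 78.1% in Gcn2-/- PBS and 70.1% in Atf4-/- PBS livers, with similar shares after ASNase. Cyp3a25 held 22.1% of the sum in Atf4-/- PBS livers and 9.66% in WT PBS livers. Cyp3a13 held 13.2% and 14.9% after ASNase in Gcn2-/- and Atf4-/- livers and at most 3.19% in the other groups. The 4 neighbours Cyp3a16, Cyp3a41a, Cyp3a41b and Cyp3a44 together came to between 1.39 and 4.38 FPKM in the WT and Gcn2-/- groups. In Atf4-/- they reached 115 FPKM under PBS and 37.4 after ASNase. These sums and shares carry the wide interval of Cyp3a11 and are given as description.

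**Figure D3:**
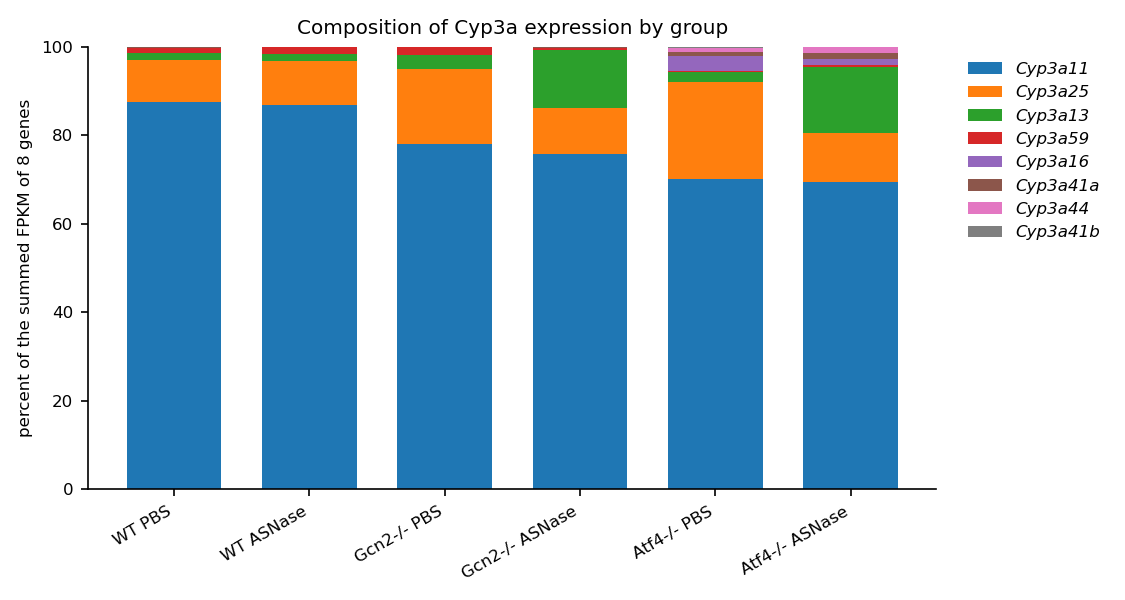
Share of each gene (percent of the summed FPKM of the 8 Cyp3a genes, vertical axis) in the 6 groups, as stacked bars. Cyp3a11 makes up 69.4% to 87.5% of each bar, Cyp3a13 widens to 13.2% and 14.9% after ASNase in Gcn2-/- and Atf4-/- livers, and Cyp3a16, Cyp3a41a and Cyp3a44 are visible in the Atf4-/- bars alone.

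The median log2 difference over all eligible genes lay between -0.05 and 0.08 in the 9 comparisons made, and the values of the Cyp3a genes and of the gene lists can be read against it. The first question was how loss of each gene affected the basal level of these enzymes. In Atf4-/- against WT livers under PBS, 7 of the 8 genes were eligible and 4 were called, 3 higher and 1 lower. Cyp3a16 rose by a log2 difference of 7.42 ± 1.27 (224-fold by FPKM), Cyp3a41a by 4.13 ± 1.49 and Cyp3a44 by 2.67 ± 1.29 (6.53-fold). The fold of Cyp3a16 rests on a WT value of 0.322 FPKM with an interval of 0.0101 to 0.633, and is poorly fixed. Cyp3a59 fell by 2.31 on the log2 scale (error 0.976), which put it 5.01-fold lower. Of all 9039 eligible genes 1.12% were called, 0.354% higher and 0.763% lower. Cyp3a16, Cyp3a41a and Cyp3a44 were eligible through their Atf4-/- level alone, so the count of 4 is not read against that background. The 3 risen genes and Cyp3a41b, with intervals also apart (2.52 against 0.00568 FPKM), are the 4 that follow each other in the cluster. The next gene on the chromosome, Cyp3a11, stood at 1497 against 2995 FPKM with overlapping intervals. The log2 differences of Cyp3a25 and Cyp3a13 were 0.51 ± 1.26 and -0.28 ± 0.937. Of the genes eligible in this comparison, 99.97% had a smaller log2 difference than Cyp3a16, 99.8% a smaller one than Cyp3a41a and 99.8% a smaller one than Cyp3a44. Since these 3 genes were eligible through their high Atf4-/- level alone, a high rank is partly built in, and the ranks are description.

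In Gcn2-/- against WT livers under PBS, 4 of the 8 genes were eligible. Of these 0 were called, where 1.04% of 8920 eligible genes were (0.392% higher and 0.65% lower). The log2 differences were -0.77 ± 2.38 for Cyp3a11, 0.40 ± 0.907 for Cyp3a13, 0.19 ± 1.21 for Cyp3a25 and 0.04 ± 0.945 for Cyp3a59. Cyp3a41a, at 0.243 against 1.09 FPKM, was below the limit of 3 FPKM in both groups, as were Cyp3a16 and Cyp3a44. In Atf4-/- against Gcn2-/- livers under PBS 4 of 7 eligible members were called, 3 of them again eligible through their Atf4-/- level alone. Of 9015 eligible genes 0.976% were called, 0.544% higher and 0.433% lower. Cyp3a16 was higher by 7.91 ± 1.28, Cyp3a41a by 5.93 ± 1.40 and Cyp3a44 by 3.19 ± 1.33, and Cyp3a59 was lower, at a log2 difference of -2.35 ± 1.04. Both comparisons use the same Atf4-/- PBS livers.

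**Figure D4:**
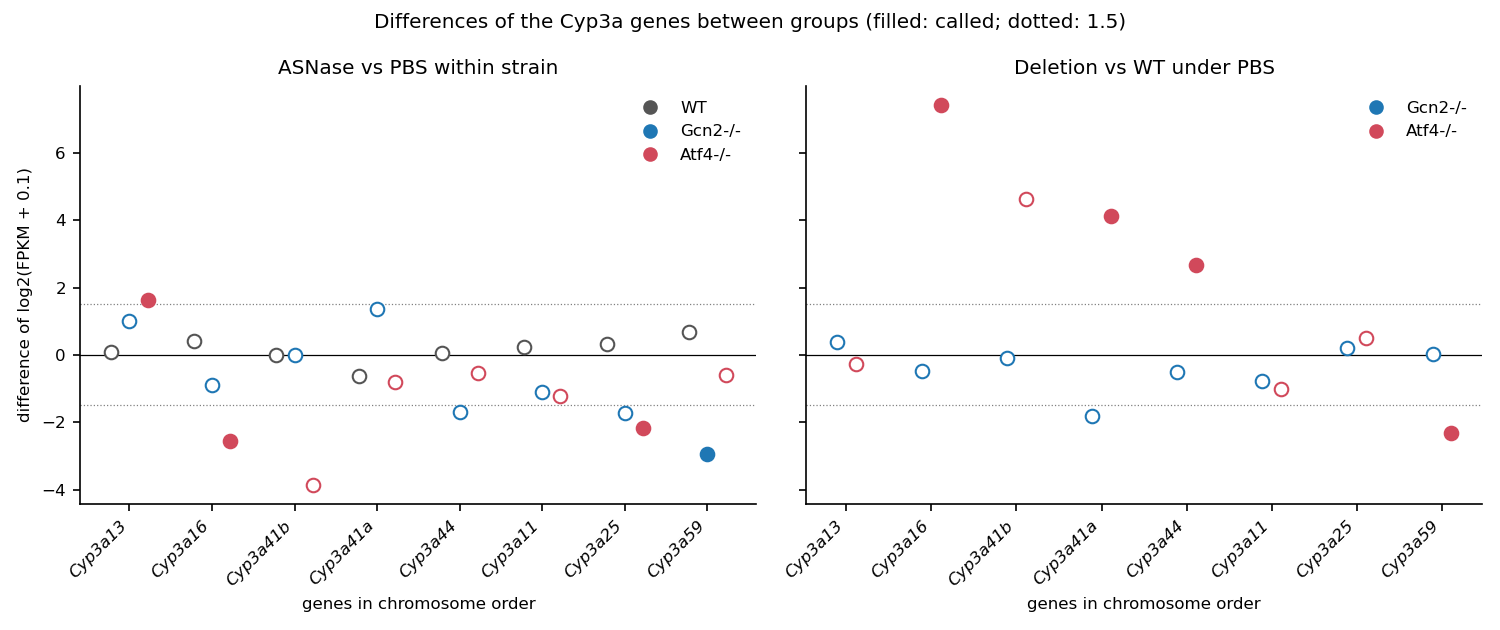
Difference of log2(FPKM + 0.1) (vertical axis) of the 8 Cyp3a genes, in chromosome order, for ASNase against PBS within each strain (left) and for each deletion against WT under PBS (right), with filled points for called genes and dotted lines at 1.5. On the right the red points of 4 neighbouring genes lie between 2.67 and 7.42, and on the left the WT points lie close to 0 while Cyp3a13 lies above 0 in both deletions and Cyp3a25 below the lower dotted line.

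The second question was how each strain responded to asparaginase. In WT livers 5 of the 8 genes were eligible and 0 were called, where 0.881% of 9084 eligible genes were (0.76% higher and 0.121% lower). The log2 differences between ASNase and PBS were 0.10 ± 0.897 for Cyp3a13, 0.31 ± 1.23 for Cyp3a25, 0.06 ± 1.20 for Cyp3a44 and 0.67 ± 0.885 for Cyp3a59. Each of these 4 differences was smaller than its error, as was that of Cyp3a11 (0.23).

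In Gcn2-/- livers 4 of the 8 genes were eligible after ASNase. Of these 1 was called, against 3.69% of 9218 eligible genes (1.56% higher and 2.13% lower), and nothing is read from a count of 1. Cyp3a59 fell by 2.94 on the log2 scale (error 1.01), a level 7.79-fold lower. Cyp3a25 showed a difference of -1.73 ± 1.16 with overlapping intervals, and it was called when the FPKM difference was set against the combined error of both FPKM values instead. Cyp3a11, at -1.09 ± 2.49, and Cyp3a13, at 144 against 71.9 FPKM, also had overlapping intervals.

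In Atf4-/- livers 7 of the 8 genes were eligible after ASNase and 3 were called, against 7.37% of 9485 eligible genes. Cyp3a13 rose by 1.62 ± 0.983 (3.08-fold), where 2.74% of all eligible genes were called higher. Cyp3a16 fell by 2.56 on the log2 scale (error 1.11) and Cyp3a25 by 2.17 (error 1.19), levels 5.92-fold and 4.50-fold lower, where 4.63% of all eligible genes were called lower. Cyp3a41a showed -0.80 ± 1.19, Cyp3a44 -0.55 ± 1.40, Cyp3a59 -0.60 ± 1.20 and Cyp3a11 -1.21 ± 1.61, all with overlapping intervals. Cyp3a59 was already in its lower set under PBS in this strain.

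The response of each deletion was set against that of WT by the difference of their log2 changes, with the errors of all 4 values combined. For Cyp3a59 in Gcn2-/- livers this difference was -3.60 ± 1.34, for Cyp3a25 it was -2.04 ± 1.69 in Gcn2-/- and -2.48 ± 1.71 in Atf4-/- livers, for Cyp3a16 -2.98 ± 1.83 in Atf4-/- livers and for Cyp3a13 1.53 ± 1.33 in Atf4-/- livers. In these the difference was larger than its combined error. For Cyp3a11 it was -1.32 ± 3.25 and -1.44 ± 2.65, for Cyp3a13 in Gcn2-/- livers 0.90 ± 1.35 and for Cyp3a59 in Atf4-/- livers -1.27 ± 1.49, all smaller than their errors. No replicate test of these differences could be made.

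After ASNase the strains were also compared directly. In Gcn2-/- against WT livers, 2 of 5 eligible members were called (4.41% of 9423 eligible genes, 2.59% lower and 1.83% higher). Cyp3a59 was 12.1-fold lower (-3.57 ± 0.951) and Cyp3a44 5.55-fold lower (-2.28 ± 1.35). Cyp3a44 was eligible here at 3.10 FPKM in WT, close to the limit. In Atf4-/- against WT livers, 3 of 7 eligible members were called (8.25% of 9577 eligible genes, 2.59% higher and 5.66% lower). Cyp3a16 was higher by 4.45 ± 1.32, Cyp3a41a was higher by 3.97 ± 1.45 and Cyp3a59 was 12.2-fold lower (-3.58 ± 1.12). Cyp3a16 and Cyp3a41a were eligible there through their Atf4-/- level alone, so this count is not read against the background. Cyp3a44, at 2.05 ± 1.32, and Cyp3a25, at -1.97 ± 1.16, had overlapping intervals. In Atf4-/- against Gcn2-/- livers, 3 of 7 eligible members were called (3.19% of 9355 eligible genes, 0.898% higher and 2.29% lower). Cyp3a16 was higher by 6.26 ± 1.15, Cyp3a44 by 4.33 ± 1.43 and Cyp3a41a by 3.78 ± 1.30. All 3 were eligible through their Atf4-/- level alone and could only be called higher, so this count is not read against the background either. Cyp3a59, Cyp3a25 and Cyp3a13 had nearly equal values in these 2 groups, with log2 differences of -0.01 ± 1.16, -0.12 ± 1.07 and -0.05 ± 1.03. These comparisons share their groups with those above.

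Because Cyp3a41a, Cyp3a41b and Cyp3a44 are female-predominant and the sexes were not balanced, sex-linked and sex-biased transcripts were placed beside them. Xist, expressed from the inactive X chromosome of females, was between 33.9 and 89.8 FPKM in the 6 groups. It was 63.9 (0 to 189) in WT PBS and 33.9 (0 to 125) in Atf4-/- PBS livers. Its intervals began at 0 in every group, so its values do not tell the groups apart. Ddx3y, a Y-linked gene, was 11.4 to 14.2 in the 3 groups with 2 males and 5.62 to 6.20 in the 3 with 1. Cyp3a41a and Cyp3a44 were highest in both Atf4-/- groups, which held 2 males each by the labels. None of the sex-linked genes was called in any of the 9 comparisons. Groups held 1 or 2 males of 3, and that difference is expected to shift such a gene by less than the log2 limit of 1.5. The call rule therefore could not show sex makeup, in these genes or in the sex-biased genes that follow. Of 11 other female-biased liver genes, 0 were called higher and 0 lower in Atf4-/- against WT livers under PBS, with a median log2 difference of 0.37. Cyp2b9, a female-predominant P450, was 93.9 against 150 FPKM there, and Cyp2a4, another, was 184 against 312. Of 11 male-biased genes, 0 of the 9 eligible were called in that comparison, with a median of 0.29. Sex makeup was not tested, since no single library could be separated.

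**Figure D5:**
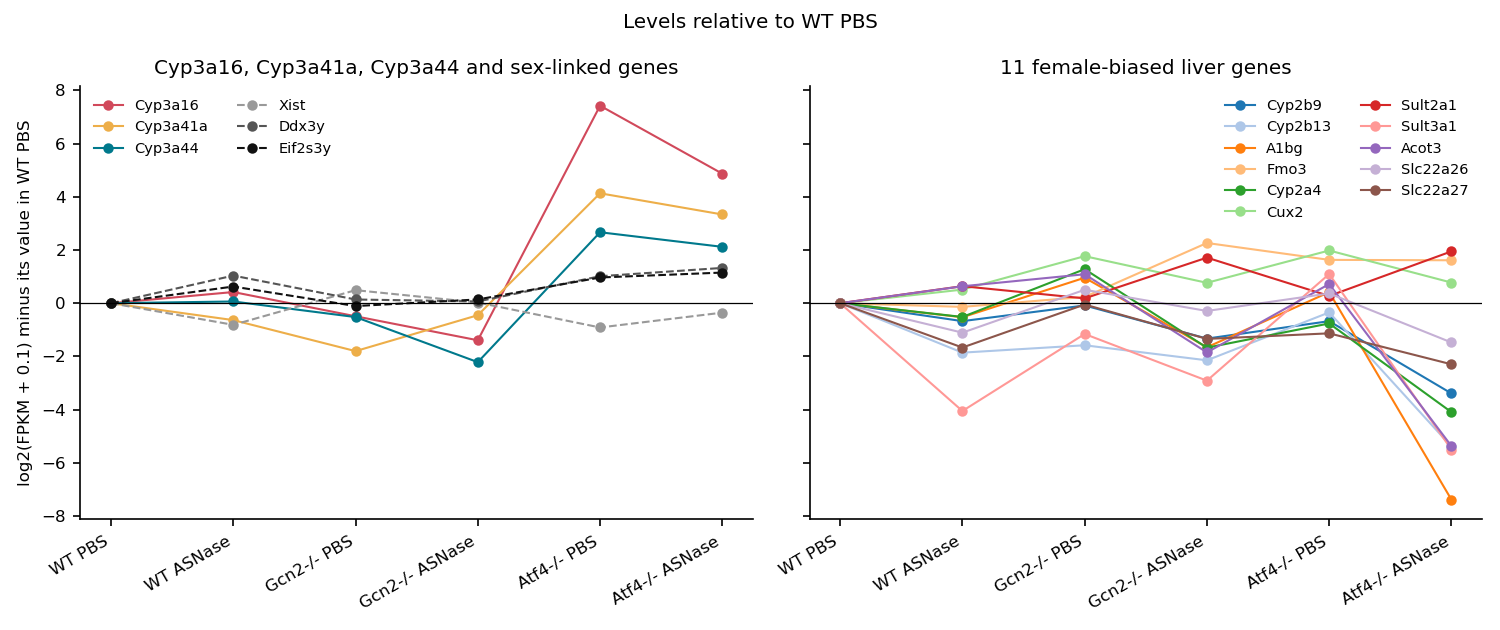
Log2(FPKM + 0.1) minus its value in WT PBS (vertical axis) in the 6 groups, for Cyp3a16, Cyp3a41a, Cyp3a44 (solid lines) and the sex-linked Xist, Ddx3y and Eif2s3y (dashed) on the left and for 11 female-biased liver genes on the right. The Cyp3a lines stand 2.67 to 7.42 above 0 in Atf4-/- PBS livers, above the sex-linked genes there, and the female-biased genes lie on both sides of 0.

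After ASNase, female-biased and male-biased genes both included some that fell. Of the 11 female-biased genes, 4 fell and 0 rose in Atf4-/- livers (A1bg at a log2 difference of -7.80 and Sult3a1 at -6.59), 3 fell and 0 rose in Gcn2-/- livers and 1 fell, Sult3a1, in WT livers. Of the male-biased genes, 7 of 10 eligible fell in Atf4-/- livers (Mup20 at -4.18, Hsd3b5 at -8.62), 5 of 9 in Gcn2-/- livers and 0 of 9 in WT livers. Of all eligible genes 4.63% were called lower in Atf4-/-, 2.13% in Gcn2-/- and 0.121% in WT livers after ASNase. Cyp3a41a and Cyp3a44, at -0.80 and -0.55 in Atf4-/- livers, were not called there. In the growth hormone pathway, 2 of 10 genes fell after ASNase in Atf4-/- livers, the receptor gene Ghr at a log2 difference of -2.61 and Igfals, which encodes a serum partner of IGF1, at -4.49. Igfals also fell in Gcn2-/- livers, at -1.85. Over these genes the median after ASNase was -0.97 in Gcn2-/- and -0.95 in Atf4-/- livers and -0.02 in WT livers. Under PBS 0 of the 10 were called in either deletion, where 1.04% (Gcn2-/-) and 1.12% (Atf4-/-) of all eligible genes were.

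Markers of fetal and newborn liver were set beside Cyp3a16. Of 6 such genes, Afp lay between 0.356 and 1.26 FPKM in all groups, at 0.719 in Atf4-/- PBS livers, and Igf2 and Gpc3 were at or below 1.09 FPKM. H19, the 1 eligible gene, was lower in Atf4-/- than in WT PBS livers (1.63 against 27.2 FPKM). It was lower in Gcn2-/- PBS livers too (2.26 FPKM), and followed the muscle markers in being highest in WT. The other genes of the list stayed below the FPKM limit in all groups, the Atf4-/- groups included, and could not be called. No count of calls is therefore read for this list.

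Next, the known regulators of Cyp3a were examined. Of 18 genes, 16 were eligible in each deletion against WT under PBS and 17 in WT livers after ASNase. In each case 0 were called. Of all eligible genes 1.04% (Gcn2-/-), 1.12% (Atf4-/-) and 0.881% (WT after ASNase) were, so nothing is read from these counts of 0. The median log2 difference of the regulators was 0.15 in Atf4-/- against WT livers under PBS. PXR (Nr1i2) was between 26.5 and 38.8 FPKM in 5 groups and 16.4 in Atf4-/- ASNase livers, and CAR (Nr1i3) was between 72.8 and 122 in the same 5 and 50.3 in Atf4-/- ASNase. Hnf4a, which encodes a hepatocyte nuclear receptor needed for Cyp3a expression, was between 145 and 213 FPKM. Among the other abundant regulators, Rxra was between 70.1 and 96.4 FPKM. Under PBS and after ASNase, Cebpa was 192 and 79.9 FPKM in Gcn2-/-, 151 and 64.9 in Atf4-/- and 138 and 149 in WT livers. Within each strain its intervals overlapped, and its part in the Cyp3a levels was not tested. The gene that fell after ASNase was Nr0b2, which encodes the corepressor SHP, at a log2 difference of -1.54 in Gcn2-/- and -4.43 in Atf4-/- livers. It was 1 of 16 and 1 of 17 eligible regulators, where 2.13% and 4.63% of all eligible genes were called lower. Nothing is read from a count of 1. Of the P450 electron partners, 4 of 5 were in the table: Por, Cyb5b, Cyb5r3 and Pgrmc1. The endoplasmic reticulum form of cytochrome b5 was not among them and was not examined. Por was between 186 and 363 FPKM and called in no comparison, and Cyb5b, the mitochondrial outer membrane form of cytochrome b5, fell after ASNase in Atf4-/- livers (-1.71).

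Other targets of PXR and CAR were compared next. Of 18 such genes, 0 were called higher and 3 lower in Atf4-/- against WT livers under PBS, with a median log2 difference of -0.70 over 16 eligible genes. Of all eligible genes, 0.354% were called higher and 0.763% lower there. Cyp2b10, the classic CAR target, was 2.63 against 15.3 FPKM (-2.50), Gsta1, a glutathione transferase, was 0.687 against 13.7 (-4.13) and Cyp2c55 was 2.11 against 8.52 (-1.97). After ASNase 2 of 15 eligible genes rose and 1 fell in Atf4-/- livers, with Cyp2b10 at 4.17 and the carboxylesterase gene Ces2a at -2.10. The shares over all eligible genes were 2.74% higher and 4.63% lower. In Gcn2-/- livers 0 of 17 eligible genes rose and 3 fell, among them Ces2a at -2.02, where 1.56% of all eligible genes were called higher and 2.13% lower. In WT livers 0 of them were called. Between Atf4-/- and Gcn2-/- livers after ASNase, 1 was called higher and 1 lower, against 0.898% and 2.29% of all eligible genes. Of 12 hepatocyte markers 10 were eligible, and their median log2 difference after ASNase was -0.90 in Gcn2-/- and -0.67 in Atf4-/- livers, against -0.23 in WT livers. Fabp1, the liver fatty acid binding protein gene, was the 1 marker that fell, in Atf4-/- livers (-7.35). The part of these markers in the low Cyp3a25 and Cyp3a59 was not tested.

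The genes whose 6 group values followed each member most closely were sought among 10165 genes, by Pearson's r over the 6 groups. With so few points that share their libraries between genes, high values of r are easily reached, and they are given as a description. Cyp3a41a was followed most closely by Cyp2c39, another P450 (r = 0.970), at 2.68, 3.87, 2.68 and 4.65 FPKM in the WT and Gcn2-/- groups and 100 and 53.0 in Atf4-/- livers. Next came Snora62 and Serpina3c. For Cyp3a16 they were Rgl2 (r = 0.993), Snora62 and Sult2a6, the last a sulfotransferase gene at 4.67 and 2.48 FPKM in Atf4-/- livers and at most 0.0163 elsewhere. For Cyp3a44 they were Serpine2, Naglu and Chd6 (r = 0.983 to 0.987).

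Cyp3a11 was followed by Cox7a1, Elovl6 and Adssl1 (r = 0.990 to 0.994). Cyp3a25 was followed by Ssbp3, Slc22a23 and Akr1c14 (r = 0.994 to 0.998), of which Akr1c14, an aldo-keto reductase gene, was 33.7 and 33.8 FPKM after ASNase in Gcn2-/- and Atf4-/- livers and 199 to 254 in the other 4 groups. Cyp3a59 was followed by Fam195a, Cdca3 and Glrx5 (r = 0.986 to 0.994). Cyp3a13 was followed by Zkscan5, P4hb and Znhit2 (r = 0.993 to 0.994). P4hb, which encodes protein disulfide isomerase of the endoplasmic reticulum, was 1201 and 1250 FPKM after ASNase in Gcn2-/- and Atf4-/- livers and 575 to 755 in the other 4. Among the members themselves, Cyp3a16 ran with Cyp3a41a (r = 0.951) and Cyp3a44 (r = 0.944), Cyp3a11 with Cyp3a59 (r = 0.916), and Cyp3a13 against Cyp3a25 (r = -0.964), all over the same 6 points.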

How the data were processed

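RNA-Seq was performed on liver of 18 mice in 6 groups of 3, formed from the sample labels. According to the methods of the study, poly-A libraries were sequenced as single-end reads, aligned to mm10 with TopHat and Bowtie, assembled with Cufflinks and Cuffmerge and quantified with Cuffdiff. The authors deposited 1 FPKM value per gene and group with a lower and an upper bound, also in FPKM, and a status. All 48 values of the 8 genes had the status OK, and 160 values of the whole table did not. FPKM carries no counts, so precision was taken from the Cuffdiff bounds. The limma test planned for single libraries could not be fitted.

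Groups were compared in 9 pairs on log2(FPKM + 0.1) over the whole table with Python 3.11.15, pandas 2.3.3 and numpy 2.4.6. The FPKM limit of 3 and the log2 limit of 1.5 are those of the study, and separate intervals stand in place of its q value. The rule was tested on simulated data. Alternatives were other pseudocounts, FPKM limits, fold limits, a median-ratio scaling and a combined error of both FPKM values. Named genes were all members, other Cyp3a genes, up to 4 genes per list (the most abundant and those called) and the 3 genes most like each member. Among the regulators, PXR and CAR were named in addition. Members and lists were chosen with earlier results of these data known. The lists were regulators of Cyp3a, other PXR and CAR targets, P450 electron partners, growth hormone pathway, female-biased, male-biased and sex-linked genes, fetal liver genes, and markers of hepatocytes, intestine, muscle and lung. Sequence comparison used GENCODE transcripts and RefSeq promoters with Biopython 1.88.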

Additional observations from a re-analysis of the deposited data

How the results depend on the processing

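No paired analysis was possible because the table holds 1 value per group and no value of a single library, and for the same reason no mouse could be left out in turn. Over the 8 genes and 9 comparisons, each of 7 alternatives left the direction of the 72 differences as it was, except that median-ratio scaling took Cyp3a59 in Gcn2-/- against WT livers under PBS, not called, from 0.04 to -0.02. A pseudocount of 1 lowered the called Cyp3a genes in Gcn2-/- against WT livers under ASNase from 2 to 1, Cyp3a44 being lost. Setting the FPKM difference against the combined error of both FPKM values, on the linear scale, raised them from 1 to 2 for ASNase in Gcn2-/- livers (Cyp3a25 added), from 2 to 3 in Gcn2-/- against WT livers under ASNase (Cyp3a25 added) and from 3 to 5 in Atf4-/- against WT livers under ASNase (Cyp3a25 and Cyp3a44 added). With an FPKM limit of 1 or none, Cyp3a41b was also called, higher by 4.63 in Atf4-/- against WT livers under PBS and at -3.85 for ASNase in Atf4-/- livers. With median-ratio scaling Cyp3a25 was also called in Atf4-/- against WT livers under ASNase. Without an FPKM limit the calls over all genes went from 80 to 124 for ASNase in WT livers, from 93 to 144 for Gcn2-/- and from 101 to 153 for Atf4-/- against WT livers under PBS. Wide intervals limit the calls most for Cyp3a11, whose bounds lay 78.3% to 135% of the value away, and the division of reads between Cyp3a41a and Cyp3a41b is unsettled.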
